A study of Homo sapiens with 6 samples.

Results

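The ATP-binding cassette (ABC) transporter genes were taken as the protein-coding genes whose symbol is ABCA to ABCG followed by a number, which gave 45 of 61279 genes with a quantified transcript (19954 of them protein-coding). There were 12 members in subfamily ABCA, 9 in ABCB, 11 in ABCC, 4 in ABCD, 1 in ABCE, 3 in ABCF and 5 in ABCG. The rule reads the symbols and no measured value, though the family was picked for study with earlier results of these data known. The study compared RNA from T47D cells, a hormone receptor-positive breast cancer line that it describes as PIK3CA-mutant. It kept its cell lines in RPMI or DMEM with serum. The T47D cells were exposed for 24 hours to 4 μmol/L MI-503 or to its vehicle DMSO. MI-503 is an inhibitor of the binding of menin to the histone methyltransferase MLL1. Each label had 3 libraries, which the study describes as independent experiments. The comparison asks which transcripts differ when MLL1 activity is inhibited.

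ABC proteins use the energy of ATP to move substrates across membranes, or, in subfamilies ABCE and ABCF, work on ribosomes without crossing a membrane. The ABCA and ABCG proteins mostly move lipids and sterols, ABCB holds drug pumps, peptide transporters and mitochondrial transporters, ABCC holds the multidrug resistance-associated proteins (MRPs) and the sulfonylurea receptors, and ABCD proteins serve peroxisomes and lysosomes. In breast and other epithelial cancers the family is best known for drug efflux by ABCB1, ABCC1 and ABCG2.

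The libraries labelled DMSO went against their cell line label. ESR1, which encodes the estrogen receptor, lay at 210 to 296 CPM (reads scaled to library size, with edgeR's TMM correction for composition) in libraries labelled MI-503, against 0 to 0.194 CPM in libraries labelled DMSO, and the prostate kallikrein gene KLK3 was at 0 CPM against 3673 to 3762 CPM. Of 15 luminal breast markers, 13 of 14 tested were higher with MI-503, with a summed level of 12877 to 19271 CPM against 1389 to 1715 CPM, and of 12 prostate markers, 11 were lower, at 129 to 135 CPM against 6809 to 8383 CPM. The lists for basal epithelium (at most 0.297 CPM against 4.01 to 4.84 CPM), mesenchymal cells (77.9 to 120 CPM against 30.3 to 54.2 CPM) and blood cells (3.51 to 3.98 CPM against 0.859 to 2.46 CPM) were low or mixed, with KRT5, KRT17, PTPRC and CD3E at 0 in every library. In the hepatocyte list (250.1 to 373 CPM against 1.18 to 1.36 CPM) SERPINA1 carried the sum in libraries labelled MI-503 and ALB was at 0 there. MI-503 exposure and any difference in the source of the cells therefore cannot be told apart in these data, and every result below compares libraries by label. Libraries held 17404736 to 22168525 reads, log2 levels correlated at 0.974 to 0.992 within labels and at 0.758 to 0.778 between them, and 62.9% of the 16442 genes tested passed an adjusted p of 0.05.

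The sequences just upstream of 4 members are shown because these genes had some of the widest gaps between labels and their starts differ in base composition. Each is the 250 bases before the RefSeq start on GRCh38.p14, read 5′ to 3′ on the minus strand, with CG dinucleotides in capitals. They lie at chr13:95301452-95301701 (ABCC4), chr16:48247540-48247789 (ABCC11), chr16:48155994-48156243 (ABCC12) and chr2:215138627-215138876 (ABCA12).
ABCC4: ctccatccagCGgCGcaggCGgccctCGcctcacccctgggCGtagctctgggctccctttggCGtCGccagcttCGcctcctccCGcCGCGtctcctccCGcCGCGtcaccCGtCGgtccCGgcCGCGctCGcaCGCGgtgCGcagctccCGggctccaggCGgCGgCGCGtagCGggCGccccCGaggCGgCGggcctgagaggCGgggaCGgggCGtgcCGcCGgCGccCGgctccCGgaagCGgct
ABCC11: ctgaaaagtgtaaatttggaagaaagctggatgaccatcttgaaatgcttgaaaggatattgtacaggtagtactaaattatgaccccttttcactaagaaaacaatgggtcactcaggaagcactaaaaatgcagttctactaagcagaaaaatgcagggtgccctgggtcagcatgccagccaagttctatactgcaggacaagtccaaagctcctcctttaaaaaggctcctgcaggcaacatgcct
ABCC12: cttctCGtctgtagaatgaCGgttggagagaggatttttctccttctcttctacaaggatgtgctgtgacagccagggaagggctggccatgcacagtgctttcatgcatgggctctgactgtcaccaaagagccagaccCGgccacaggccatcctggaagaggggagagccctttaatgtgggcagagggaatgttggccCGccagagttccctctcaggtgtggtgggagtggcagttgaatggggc
ABCA12: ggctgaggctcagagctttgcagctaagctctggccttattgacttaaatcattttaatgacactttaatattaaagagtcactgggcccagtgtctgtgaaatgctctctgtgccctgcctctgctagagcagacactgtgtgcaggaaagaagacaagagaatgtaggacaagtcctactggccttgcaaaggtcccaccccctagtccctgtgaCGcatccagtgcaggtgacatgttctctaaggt
The ABCC4 window held 42 CG dinucleotides, a number that 1.38% of 34943 RefSeq promoters reach, the ABCC11 window held 0, the ABCC12 window 4 and the ABCA12 window 1. The median promoter held 11, with quartiles of 3 and 23. These 4 windows were picked after their values were seen and do not stand for the family. Over all canonical starts, 13 members higher with MI-503 held 0 to 54 and 7 lower members held 13 to 42. The ABCC11 window belongs to a start that took 33.8% of the gene's reads with MI-503 and 34.7% with DMSO, and the ABCC12 window to one that took 25.5% with MI-503.

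Of the 45 members, 29 had enough reads to be tested and 16 did not. The fit was edgeR's quasi-likelihood test across all 16442 genes, with Benjamini-Hochberg adjustment over all of them. Among the tested members 24 passed, 14 higher and 10 lower with MI-503. Over all genes tested, 62.9% passed, 31.7% higher and 31.2% lower. ABCC4, ABCC12, ABCC3, ABCG4 and ABCA1 passed the filter on low counts through the label where they are high, so the 29 are not a measure of the whole family. The 29 had a median log2 fold change (MI-503 over DMSO) of 0.78 and a median size of change of 1.34, beside -0.0044 and 0.90 over all genes tested. With an added threshold of 2 on the size of the log2 fold change, 7 members were higher and 3 lower, beside 12.6% and 11.7% of all genes. CPM of the labels did not overlap for 26 of the 29 members, beside 68.7% of all genes. In bulk RNA, fewer cells of a type and less RNA per cell cannot be told apart.

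**Figure D1:**
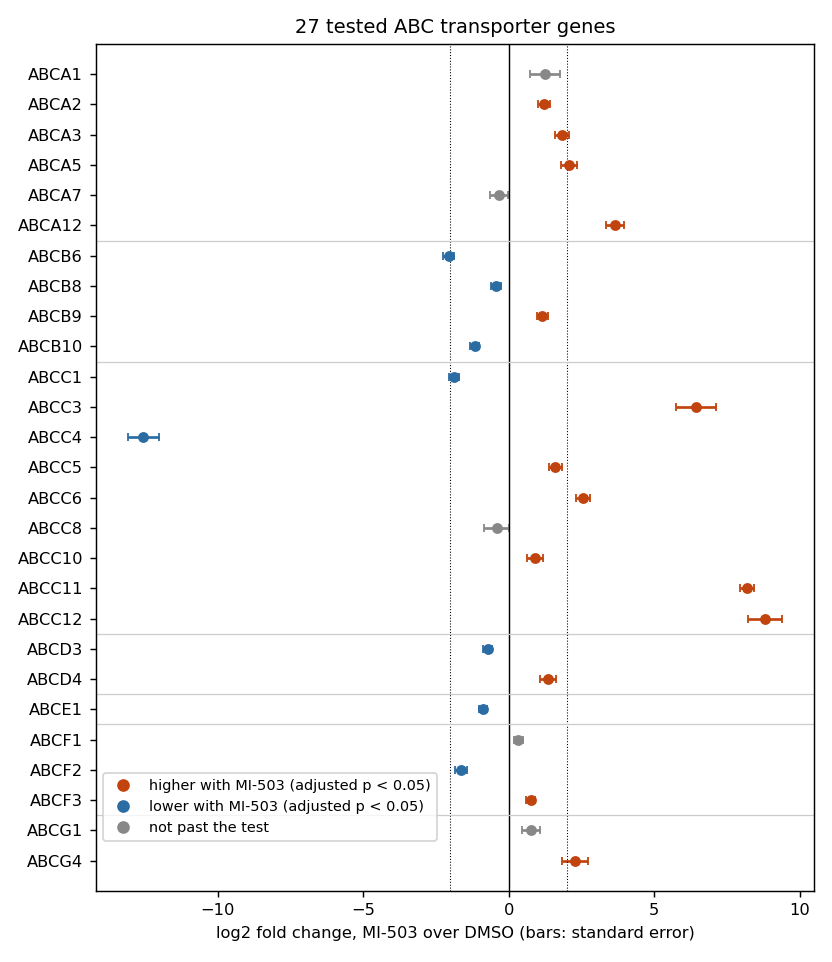
Log2 fold change (MI-503 over DMSO, x axis) of 27 tested ABC genes, grouped by subfamily from ABCA at the top to ABCG at the bottom, with bars for the standard error and dotted lines at a log2 fold change of -2 and 2. ABCC holds both ends of the range, ABCC4 at -12.55 and ABCC12 at 8.80.

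In subfamily ABCA, 4 of 6 tested members were higher with MI-503, none was lower and 2 did not pass, so that 66.7% passed, beside 62.9% of all genes tested. ABCA2, a lipid transporter of endosomes and lysosomes, was the most abundant ABC transcript with either label. It had 775, 483 and 529 CPM in libraries labelled MI-503, against 315, 215 and 240 CPM in libraries labelled DMSO. No MI-503 library fell among the DMSO libraries, and the log2 fold change was 1.21 (standard error, SE, 0.22, adjusted p = 8.89e-04). ABCA3, which loads surfactant lipids into lamellar bodies in the lung, had 264, 244 and 277 CPM with MI-503, against 98.9, 72.0 and 50.1 CPM with DMSO, a log2 fold change of 1.83 (SE 0.23, adjusted p 8.78e-05).

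ABCA12, which exports lipids of the skin barrier in keratinocytes, differed most in its subfamily. Its levels were 55.8, 64.0 and 64.6 CPM in libraries labelled MI-503, against 7.51, 4.21 and 2.96 CPM in libraries labelled DMSO. The labels were far apart, with a log2 fold change of 3.65 (SE 0.31, adjusted p 6.43e-06). The transcripts differed too. With MI-503, 100% of the ABCA12 reads were assigned to the long transcript ABCA12-201, whose upstream bases are printed above. With DMSO that transcript took 60.2% of only 318 reads. ABCA12-202, which starts elsewhere in the gene, took 39.8% (27.3%, 45.2% and 64.4% by library). The long non-coding RNA gene SNHG31 overlaps ABCA12 on the opposite strand (48 reads against 263). Strand use in counting is not given, so reads of the pair cannot be told apart with certainty. ABCA5, a lysosomal member, had 44.7, 29.1 and 23.0 CPM with MI-503, against 8.77, 7.60 and 6.56 CPM with DMSO. Its log2 fold change of 2.08 (adjusted p = 1.04e-04) passed the fold threshold, but was 1.82 to 2.29 over the alternatives, and it was below 2 without MI-503 replicate 1 or without DMSO replicate 3.

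ABCA1, which hands cholesterol and phospholipid to apolipoprotein A-I, was near the limit of detection, at 1.15 ± 0.139 CPM with MI-503 and 0.482 ± 0.259 CPM with DMSO (SD, n = 3 each), and missed the test (adjusted p = 0.057 by edgeR). ABCA7, a relative of ABCA1 active in brain and phagocytic cells, had 63.9, 40.6 and 47.2 CPM with MI-503, against 43.4, 47.6 and 100 CPM with DMSO. The labels overlapped, DMSO replicate 3 was the highest of the 6 libraries, and the log2 fold change was -0.33 (adjusted p = 0.377), turning to 0.15 without DMSO replicate 3. The retinal transporter ABCA4 had 19 reads against 6, ABCA13 had 0 against 16, ABCA8 1 against 0 and ABCA10 2 against 0, while ABCA6 and ABCA9 had no read. ABCA13 was at least 4.65-fold lower with MI-503, counting 3 reads over the label as the floor.

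In ABCB, ABCB6, ABCB8 and ABCB10, which are known from mitochondria, were lower with MI-503 and ABCB9 was higher. ABCB6, a porphyrin transporter, had 26.5, 23.0 and 26.1 CPM in libraries labelled MI-503, against 82.0, 102 and 133 CPM in libraries labelled DMSO. No library of one label reached the other, and the log2 fold change was -2.07 (SE 0.20, adjusted p = 1.46e-05), -2.22 to -1.87 over the alternatives and inside -2 without MI-503 replicate 2 or without DMSO replicate 3. A readthrough gene on its strand had 169.7 reads against 550.4, so reads may be split between the pair. ABCB10, which serves heme synthesis in red cell precursors, was at 17.4 ± 1.87 against 39.2 ± 0.911 CPM (SD, n = 3 each), with a log2 fold change of -1.17 (adjusted p by edgeR of 1.78e-04). ABCB8 had 40.9, 31.7 and 40.1 CPM with MI-503, against 45.5, 50.9 and 57.6 CPM with DMSO. Its gap was narrow, with a log2 fold change of -0.45 (adjusted p = 0.042), and it was lost in 8 of 14 alternatives, where adjusted p reached 0.267.

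ABCB9, a peptide transporter of lysosomes, was higher, at 26.6 ± 4.87 CPM with MI-503 and 11.9 ± 0.780 CPM with DMSO (SD, n = 3 each), with a log2 fold change of 1.16 (adjusted p by edgeR of 6.07e-04). Several genes lie on its opposite strand, and strand use in counting is not given in the sources used here, so reads of overlapping genes cannot be told apart. ABCB1, the P-glycoprotein drug pump, had no read in any library. ABCB4, which puts phosphatidylcholine into bile, had 22 reads against 8. The bile salt export pump ABCB11 had 0 reads against 23 (at least 6.69-fold lower with MI-503) and ABCB5 had 0 against 8 (at least 2.33-fold lower). None of the 4 untested members exceeded 0.775 CPM in any library.

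Subfamily ABCC held the widest gaps in both directions, with 6 of 9 tested members higher, 2 lower and ABCC8 not past the test. Over all genes tested 31.7% were higher and 31.2% lower. ABCC4 encodes MRP4, an exporter of cyclic nucleotides, prostaglandins and conjugated steroids, and lies at chromosome 13, bases 95019835 to 95301475 of GRCh38 on the minus strand (ENSG00000125257.16). It had 2, 0 and 0 reads in the libraries labelled MI-503, against 7415, 4844 and 3859 reads in the libraries labelled DMSO. Its levels were 0.098, 0 and 0 CPM against 335, 235 and 176 CPM. Over pooled reads the ratio was 7033-fold lower with MI-503, with a 95% counting interval of 1947 to 58079 that covers counting error only. The fitted log2 fold change was -12.55 (SE 0.52, adjusted p = 6.35e-08) and ran between -15.27 (without MI-503 replicate 1, the only one with reads) and -11.88 over the alternatives. Of 16 ABCC4 transcripts quantified, 10 had reads with DMSO and 1 with MI-503. With DMSO, 96.4%, 97.5% and 96.5% of the reads by library went to the canonical transcript, and 98.8% of all reads to transcripts that start within 100 bases of the RefSeq start printed above. The 2 reads with MI-503 went to a shorter protein-coding transcript of 2103 bases, which had none with DMSO.

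**Figure D2:**
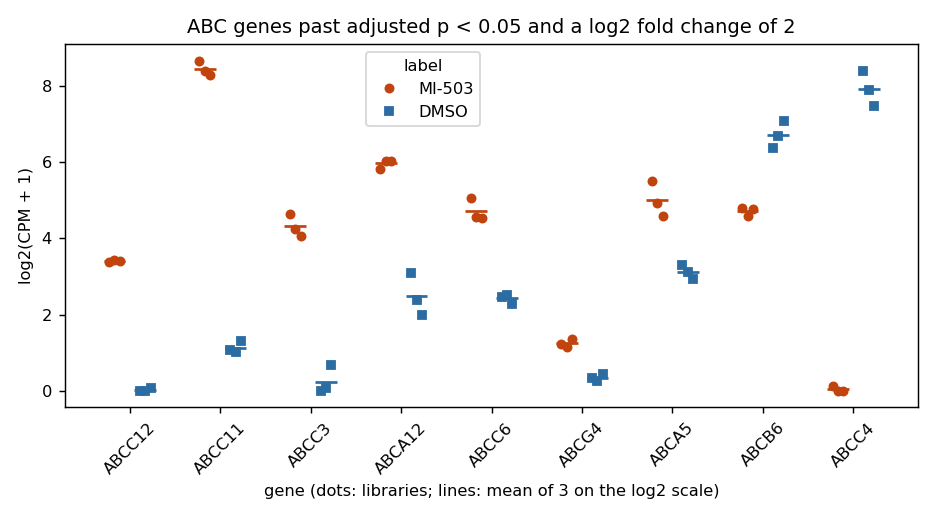
Level as log2(CPM + 1) in each library (dots) of 9 ABC genes past both thresholds (adjusted p of 0.05, log2 fold change of 2 in either direction), with lines for the mean of 3, coloured by label. The genes run from ABCC12, the highest log2 fold change, to ABCC4, the lowest, and no label overlaps the other for any of them.

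ABCC11 and ABCC12 are neighbours on chromosome 16, on the same strand with 9754 bases between them. ABCC11, MRP8, is known from apocrine glands and ear wax, and it was the third most abundant ABC gene with MI-503. It had 403, 333 and 309 CPM in libraries labelled MI-503, against 1.09, 1.02 and 1.46 CPM in libraries labelled DMSO. The labels were 291-fold apart, a log2 fold change of 8.19 (SE 0.24, adjusted p 1.45e-08). The shares assigned to its transcripts also differed, since 1 retained-intron transcript took 3.4% of the reads with MI-503 and 53.6% of the 77 reads with DMSO. LONP2 overlaps ABCC11 on the opposite strand (5532 reads against 13494). Strand use in counting is not given, so reads of the 2 genes cannot be told apart with certainty. Taking protein-coding ABCC11 transcripts only, the log2 fold change was 9.29. ABCC12, a gene of unsettled function, had 9.46, 9.83 and 9.62 CPM with MI-503, against 0, 0 and 0.046 CPM with DMSO. With 544 reads against 1, the pooled ratio was 623 (95% counting interval 111 to 24666). The fit gave 8.80 (SE 0.58, adjusted p = 1.11e-06) and ranged over the alternatives between 7.88 with protein-coding transcripts only and 10.58 without DMSO replicate 3. Most of its reads were on non-coding forms, and protein-coding transcripts took 15.4% of them with MI-503.

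ABCC3, MRP3, a basolateral exporter of bile acids and glucuronides, had 23.8, 18.1 and 15.6 CPM in libraries labelled MI-503, against 0, 0.048 and 0.593 CPM in libraries labelled DMSO. Libraries did not overlap, and the log2 fold change of 6.43 (SE 0.70, adjusted p = 3.26e-05) depended on the DMSO libraries, since it was 9.34 without DMSO replicate 3 and 5.85 without DMSO replicate 1. Protein-coding transcripts took 13.7% of the ABCC3 reads with MI-503. ABCC6, which drives ATP release from liver cells, had 32.5, 22.5 and 21.98 CPM with MI-503, against 4.52, 4.74 and 3.87 CPM with DMSO, a log2 fold change of 2.55 (SE 0.24, adjusted p 1.10e-05). ABCC6 shares sequence with the pseudogenes ABCC6P1 (990.3 reads against 47.6 on its long non-coding entry) and ABCC6P2, so its value is uncertain, and with the effective length of the transcripts in the fit it was 1.48.

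ABCC1, MRP1, a pump for glutathione conjugates and many anticancer drugs, ran the other way from its neighbour ABCC6, which lies 6307 bases away on the opposite strand. It had 73.6, 55.5 and 65.2 CPM in libraries labelled MI-503, against 232, 215 and 268 CPM in libraries labelled DMSO, and the labels did not overlap. The log2 fold change was -1.88 (SE 0.17, adjusted p = 8.40e-06), short of the fold threshold, and -2.15 with the effective lengths in the fit. ABCC5, MRP5, which exports cyclic GMP, had 232, 154 and 165 CPM with MI-503, against 55.9, 48.7 and 77.7 CPM with DMSO, a log2 fold change of 1.60 (SE 0.22, adjusted p 1.70e-04). ABCC10, MRP7, had 28.6, 17.7 and 23.9 CPM against 12.3, 9.10 and 15.96 CPM, a log2 fold change of 0.91 (adjusted p = 0.012) that missed the test without DMSO replicate 2 (adjusted p = 0.054).

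The sulfonylurea receptor ABCC8, a subunit of potassium channels, was at 0.737 ± 0.122 CPM with MI-503 and 0.986 ± 0.291 CPM with DMSO (SD, n = 3 each), with a log2 fold change of -0.41 (adjusted p by edgeR of 0.422). Its relative ABCC9 had 2 reads against 1, and the canalicular pump ABCC2 had 21 against 9, both at most 0.575 CPM in every library.

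**Figure D3:**
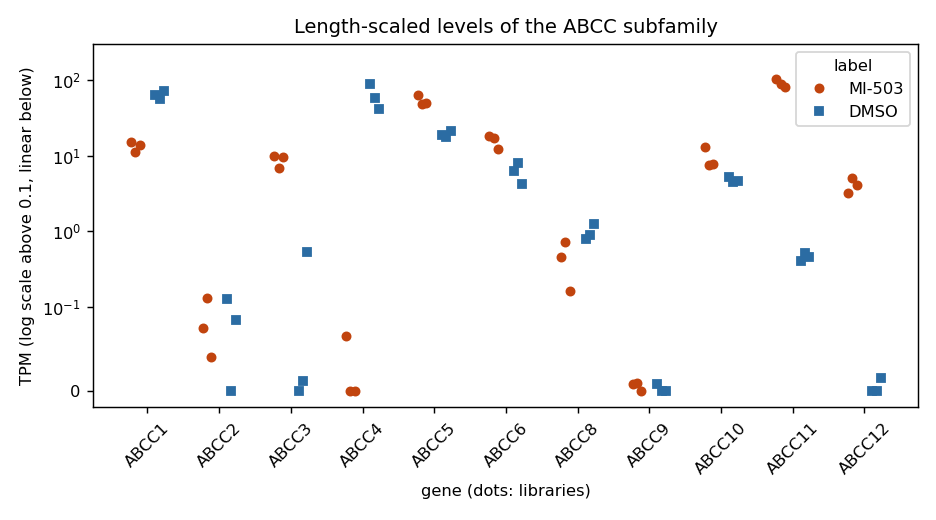
Levels scaled for transcript length and library size (TPM, y axis on a log scale above 0.1 and linear below) of the 11 ABCC genes in each library (dots), coloured by label. ABCC11 averaged 90.7 TPM with MI-503 and 0.459 TPM with DMSO, and ABCC4 0.022 and 63.0 TPM.

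In ABCD, ABCD3 was lower and ABCD4 higher with MI-503. ABCD3, a transporter of the peroxisomal membrane known as PMP70, was at 53.1 ± 6.94 against 87.4 ± 2.97 CPM (SD, n = 3 each), with a log2 fold change of -0.72 (adjusted p by edgeR of 0.0022). ABCD4, a lysosomal exporter of cobalamin, had 87.2, 41.1 and 47.7 CPM with MI-503, against 23.8, 21.9 and 23.7 CPM with DMSO. It was higher by 1.34 on the log2 scale (adjusted p = 0.0015), and by 2.01 with protein-coding transcripts only, which took 12.05% of its reads with MI-503 and 7.8% with DMSO. A long non-coding RNA gene overlaps ABCD4 on its strand (278.9 reads against 52.2), so reads may be split between the pair. ABCD2, another peroxisomal member, had no read.

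Members that act on ribosomes differed in direction. ABCE1, which splits ribosomes after termination, was the sole member of its subfamily, at 65.6, 80.6 and 79.3 CPM with MI-503, against 138, 134 and 144 CPM with DMSO, a log2 fold change of -0.88 (SE 0.15, adjusted p 4.83e-04). ABCF2, at 23.2 ± 5.37 against 72.6 ± 10.2 CPM (SD, n = 3 each), was lower by a log2 fold change of -1.65 (adjusted p by edgeR of 8.22e-05), and overlaps on its strand the readthrough gene ABCF2-H2BK1 (573.4 reads against 1891). ABCF3 had 136, 121 and 148 CPM with MI-503, against 69.4, 80.8 and 91.0 CPM with DMSO, a log2 fold change of 0.75 (SE 0.16, adjusted p 0.0022). ABCF1, which takes part in translation initiation, had 115, 132 and 131 CPM with MI-503, against 91.5, 90.0 and 118 CPM with DMSO. The labels overlapped and the adjusted p was 0.095, falling to 0.023 without DMSO replicate 3.

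In ABCG, 2 of 5 members were tested. ABCG4, a sterol transporter of brain, had 1.37, 1.20 and 1.54 CPM with MI-503, against 0.271, 0.194 and 0.365 CPM with DMSO, so few reads (77 against 18) carried its log2 fold change of 2.28 (SE 0.45, adjusted p = 0.0016). ABCG1, which moves cholesterol to high-density lipoprotein, had 26.7, 20.6 and 21.3 CPM with MI-503, against 17.6, 15.5 and 6.93 CPM with DMSO. The labels did not overlap, but the log2 fold change of 0.78 missed the test (adjusted p = 0.054), and it passed in 6 of 14 alternatives. The multidrug pump ABCG2 had 13 reads against 10, ABCG8 1 against 2, and ABCG5 none.

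**Figure D4:**
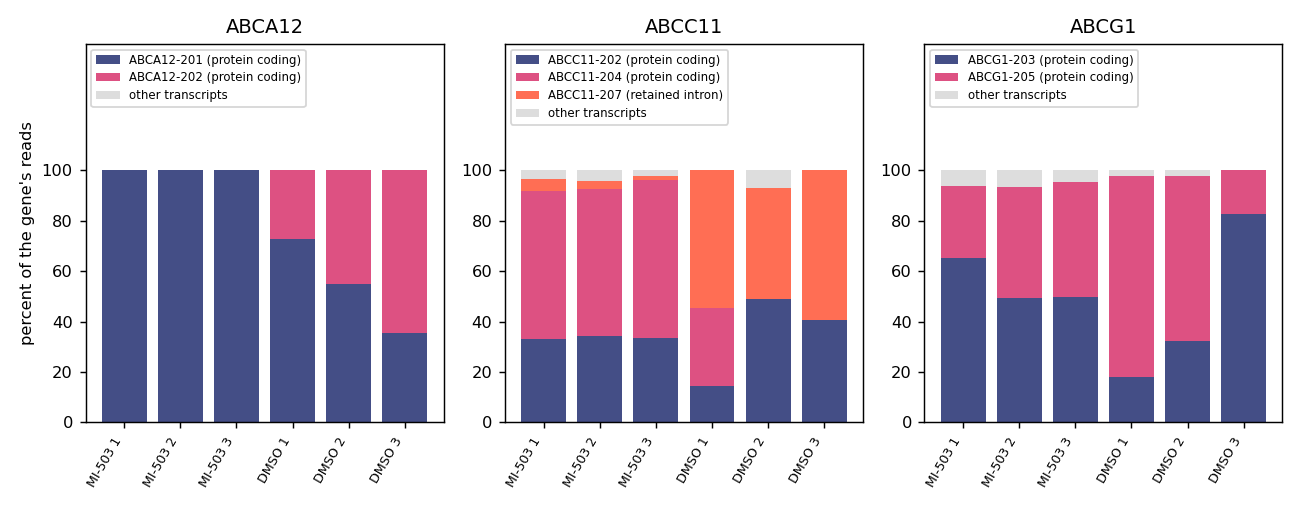
Share of the reads of ABCA12, ABCC11 and ABCG1 (panels, y axis in percent) that salmon assigned to each transcript in each library. These genes were chosen after their values were seen. ABCA12-202 takes 0% of ABCA12 with MI-503 and 27.3% to 64.4% with DMSO.

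Summed over all 45 members, levels scaled for transcript length came to 801 ± 109 TPM with MI-503 and 741 ± 65.8 TPM with DMSO (SD, n = 3 each), while the makeup differed. ABCA members gave 31.0% of the sum with MI-503 and 16.2% with DMSO, and ABCB members gave 8.76% and 19.6%. In libraries labelled MI-503, ABCA2, ABCF3, ABCC11, ABCD4 and ABCC5 led and made up 56.4% of the sum. In those labelled DMSO, ABCA2, ABCE1, ABCC1, ABCC4 and ABCB6 led, with 44.9%. Among the 10 highest of either label 6 were shared, and ABCC11 ranked at 3 with MI-503 and at 25 with DMSO. No test was run on these sums.

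**Figure D5:**
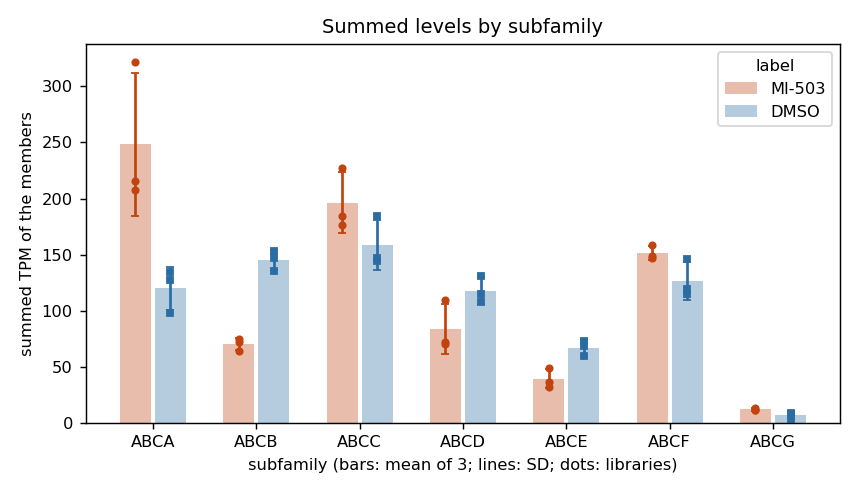
Summed TPM (y axis) of the members of each subfamily, with bars for the mean of 3 libraries, lines for the SD and dots for the libraries, coloured by label. ABCA averaged 248 TPM with MI-503 and 120 TPM with DMSO, and ABCB averaged 70.2 and 145 TPM.

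Neighbouring members did not always move alike. ABCC11 and ABCC12 were both higher, as were ABCC5 and ABCF3, which lie 168155 bases apart on chromosome 3. ABCB8 and ABCF2, 163701 bases apart on chromosome 7, were both lower, while ABCC1 and ABCC6 moved in opposite directions. In the chromosome 17 cluster of ABCA8, ABCA9, ABCA6, ABCA10 and ABCA5, only ABCA5 was tested.

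Upstream sequence was examined for the 34 members whose RefSeq promoter lies at the start of the canonical transcript. Members higher with MI-503 (13) held 0 to 54 CG dinucleotides with a median of 19, and members lower (7) held 13 to 42 with a median of 26. The GC box GGGCGG, on either strand, lay in 52.9% of the members' promoters and 42.6% of all promoters. The nuclear receptor half-site AGGTCA lay in 5.88% and 12.1%, the androgen receptor half-site AGAACA in 14.7% and 12.4%, TATAAA in 14.7% and 10.8%, and CCAAT in 20.6% and 32.0%. Of the printed windows, only that of ABCA12 held one of these motifs, AGAACA on the reverse strand. These matches describe the letters and show no binding.

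Genes that work with ABC proteins were counted from 12 lists in the same fit, in which 31.7% of all genes tested were higher and 31.2% lower. Among ABC genes with other symbols, the peptide transporter gene TAP1 was higher with MI-503 (log2 fold change 1.84) and its partner TAP2 lower (-1.15). Of 10 tested cholesterol efflux partners, 7 were higher and 1 lower (median log2 fold change 1.78), and of 8 tested prostaglandin genes, 4 were higher and 1 lower (median 2.36), including the receptor PTGER3 at 92.0, 84.8 and 110 CPM with MI-503, against 0, 0.048 and 0.046 CPM with DMSO. Of 18 peroxisome and very long chain fatty acid genes, which work beside ABCD3, 4 were higher and 9 lower (median -0.44), PEX5 by a log2 fold change of -2.04. Of 19 iron-sulfur and heme genes, which work beside ABCB6 and ABCB10, 5 were higher and 7 lower (median -0.31), with the ferrochelatase gene FECH at a log2 fold change of -3.20.

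Of 18 glutathione genes, 7 were higher and 7 lower (median -0.21), and of 13 cyclic nucleotide genes 6 were higher and 5 lower (median 0.90), with the phosphodiesterase PDE3B at 0.146, 0 and 0 CPM with MI-503, against 45.5, 37.3 and 31.7 CPM with DMSO. The phosphodiesterase PDE5A ran the other way, at 10.2, 9.73 and 5.82 CPM with MI-503, against 0.452, 0.387 and 0.775 CPM with DMSO. Of 11 tested regulators of ABC genes, 4 were higher and 1 lower (median 0.39), with the aryl hydrocarbon receptor AHR at 35.3, 36.98 and 35.3 CPM with MI-503, against 0, 0.194 and 0.046 CPM with DMSO. The lower regulator, PPARG, was at 0 CPM in each library labelled MI-503, against 1.85, 1.40 and 0.593 CPM with DMSO. The scaffold PDZK1, which binds the tails of ABCC2 and other apical carriers, was at 49.8, 49.0 and 44.1 CPM with MI-503, against 0, 0.194 and 0.046 CPM with DMSO, in a list with 3 higher and 1 lower of 6. The lower gene was MSN, at 0.098, 0.052 and 0 CPM with MI-503, against 81.5, 78.2 and 78.6 CPM with DMSO. Uptake carriers were 4 higher and 3 lower of 7, ribosome recycling partners 1 higher and 3 lower of 10, and the potassium channel pore gene KCNJ11 was higher by 1.24 on the log2 scale. PTGER3, PDE3B, AHR, PPARG, PDZK1 and MSN, among others, passed the filter on low counts through the label where they are high. The counts and medians of tested genes are therefore not a measure of the whole lists. The share of all genes past the test, 62.9% (31.7% higher and 31.2% lower), stands beside each of these counts. MI-503 exposure and the source of the cells cannot be told apart here either.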

How the data were processed

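RNA from 6 libraries, 3 per label, was quantified per transcript by the authors with salmon (Illumina DRAGEN). The deposited files hold salmon's estimated counts of reads, left unnormalized by the authors, and TPM that the authors made with salmon from those counts and effective lengths. The submitters' processing notes name GRCh38.p13 and hg38. The sources used here do not give the salmon version, annotation release or strand setting.

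Transcripts were matched by identifier to GENCODE release 44 (229321 of 232117, 98.8%, with at least 99.16% of each library's reads). Estimated counts were summed per gene and rounded. CPM are TMM-scaled (factors 0.934 to 1.053), and TPM served for levels between genes. Genes were kept by filterByExpr and tested with edgeR 4.0.16 in R 4.3.3 (quasi-likelihood test, label as the only term, Benjamini-Hochberg over 16442 genes), at an adjusted p of 0.05 and, as in the study, a log2 fold change beyond 2. The study used DESeq2, here an alternative (1.42.0). Each SE is the size of the log2 fold change over the square root of its F value. For a label with 0 reads, 3 reads over the label (0.0531 CPM for MI-503, 0.0464 CPM for DMSO) were the floor, and for 1 to 3 reads a 95% counting interval is given. Intervals and floors cover counting error only. Deposited transcript lengths entered 1 alternative.

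Counts cover every member, but values of some members are not reported here. Values by library are given for ABCC4, for members past both thresholds with at least 1 CPM in the higher label and for the highest member by TPM of each subfamily. Other members have means or ranges, some have values by library, and up to 4 genes of each list are named. The family and the lists were chosen with earlier results of these data known. CG counts were added after seeing the data. The sample titles number biological replicates, and the study describes independent experiments, without further detail on the cultures. The p-values measure the spread between these libraries only. Upstream sequences are from RefSeq (GRCh38.p14), which held 35 of the members. Mitochondrial genes took 2.81% to 5.29% of reads with MI-503 and 1.37% to 7.12% with DMSO.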

Additional observations from a re-analysis of the deposited data

How the results depend on the processing

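Under 14 alternatives (RLE and upper-quartile scaling, no filter or at least 1 CPM in 3 libraries, DESeq2, the replicate number as a block, effective lengths, protein-coding transcripts only, and each library left out), 22 to 26 members passed the test, against 24 in the fit reported, with 22 to 25 when 1 library was left out and 26 with no filter on low counts. Depending on the alternative, 22 to 24 of the 24 passed in the same direction. With no filter on low counts, 5 members were lower past the fold threshold in place of 3, ABCA13 and ABCB11 being added (ABCB11 also in DESeq2). ABCA7 ranged between -0.55 and 0.15 when 1 library was left out, reversed without DMSO replicate 3. ABCB8 (8 alternatives) and ABCC10 (1) lost the test, and ABCG1 (6) and ABCF1 (1) gained it. ABCA5 missed the fold threshold under 4 alternatives, ABCB6 under 2 and ABCC6 with effective lengths. ABCD4 and ABCC1 passed the fold threshold under 1 alternative each, ABCA3 without DMSO replicate 1. Upper-quartile scaling moved the median of all genes by -0.097. Deviations of same-numbered libraries from their label means correlated at -0.059, 0.13 and -0.076. With means of only 3 libraries per label, these values cannot decide whether the numbers pair the libraries. With the replicate block 25 members passed, ABCG1 (0.86, adjusted p = 0.029) being added. The cause of these moves was not tested. The 16 members with too few reads to be tested lay at or under 0.775 CPM in every library, and 5 of these had no read in any.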
